A study of Danio rerio with 10 samples.

Results

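nAtf6 overexpression was compared between livers of 2 ages: how much each gene differed between transgenic (TG) and sibling livers at 78 hours post fertilization (hpf), and whether this differed from the change at 5 days post fertilization (dpf). All 10 libraries of the series entered, and the quantity of interest was the log2 fold change at 78 hpf minus the log2 fold change at 5 dpf, so that a negative difference is a smaller rise, or a larger fall, at 78 hpf. nAtf6 is the nuclear fragment of the zebrafish transcription factor Atf6, driven in hepatocytes by the fabp10 promoter in the line Tg(fabp10:nAtf6-cherry; cmlc2:GFP)-C, a single transgene allele whose carriers are recognised by GFP in the heart. At 5 dpf, carriers had been outcrossed to WT TAB14 fish, and each of 3 nAtf6 TG and 3 sibling libraries held 25 pooled livers, from 3 clutches on separate days. At 78 hpf, carriers had been crossed to Tg(fabp10a:CAAX-EGFP), a green liver marker that all dissected larvae carried, and each of 2 libraries a group held 20 pooled livers, from 2 clutches. The series text names that cross for both ages. Libraries were depleted of ribosomal RNA with Ribo-Zero Gold at 5 dpf, although their labels name polyA RNA, and selected for polyA RNA at 78 hpf. Age, library preparation, depth, the number of pools, the livers per pool and, as described, the cross differed together, and these cannot be told apart.

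At 78 hpf the labels conflict. Each library titled as transgenic was deposited as SIBS, and each titled as sibling was deposited as nAtf6. All 4 carry one genotype entry, which does not decide between them, while the text on treatment matches the names of the deposited counts. The 78 hpf contrast was signed by the deposited names: the libraries deposited as nAtf6 (titled sibling, called nAtf6 pools here) minus those deposited as SIBS (titled transgenic, called SIBS pools here). Taken by the titles, every 78 hpf fold change below has the opposite sign.

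Atf6 is one of the 3 sensors of the unfolded protein response. When unfolded proteins load the endoplasmic reticulum (ER), its precursor is carried to the Golgi and cut by the site-1 and site-2 proteases, and the freed fragment enters the nucleus and induces ER chaperones, foldases and components of ER-associated degradation (ERAD). nAtf6 bypasses that cleavage. Hepatocytes secrete most plasma proteins and carry a large ER. The sensors Ire1 (ern1) and Perk (eif2ak3) run the other branches, and Perk feeds the integrated stress response, in which Atf4 induces genes of amino acid synthesis and the factor Ddit3 (Chop).

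Counts on genes were 17622825 to 22963880 per library at 5 dpf and 4868321 to 6354867 at 78 hpf. A count of 0 allows 3 counts. Scaled to these totals alone, 3 counts are 0.131 to 0.170 and 0.472 to 0.616 CPM (counts scaled to library size). The CPM of single genes below also carry TMM scaling factors (0.622 to 1.46), so these floors cannot be set against them. With TMM scaling, 3 counts were 0.217 CPM in sibling pool 2 of 5 dpf. They were 0.426 and 0.422 CPM in SIBS pools 1 and 2 of 78 hpf. The 18 hepatocyte markers took 8.42 to 15.7% of the counts at 5 dpf and 4.34 to 10.5% at 78 hpf. The pools of a group were not equally alike. Sibling pool 2 and nAtf6 TG pool 1 of 5 dpf stood apart from the other 2 pools of their groups, and nAtf6 TG pools 2 and 3 differed little beyond counting noise (a chi-square of 2.90 per degree of freedom, against 54.5 and 59.8 for the pairs with pool 1). At 78 hpf the 19 exocrine pancreas markers (73.9% of the names on that list were matched) took 0.826% of the counts in nAtf6 pool 2 and 0.00468 to 0.0277% in the other pools, against 0.133 to 0.643% at 5 dpf. Of 18 tested, 17 were higher in nAtf6 pools at 78 hpf by sign, against 11017 of 20595 genes. None passed in edgeR and 16 passed in DESeq2, while 17 had an unadjusted p under 0.05 in edgeR (94.4%, against 11.2% of all genes). For the difference between ages 17 also had an unadjusted p under 0.05 (94.4%, against 13.2% of all genes), none of them lower at 78 hpf, and none passed in edgeR. The list medians were −1.40 at 5 dpf and 6.58 at 78 hpf. The 19 skeletal muscle markers took 1.13% in SIBS pool 2 and 0.0158 to 0.198% in the others, and the 22 stellate cell and fibroblast markers took 0.0317% in nAtf6 pool 2 and 0.318 to 0.793% in the others. The share of counts is not a share of cells: fewer cells of a type and less RNA per cell cannot be told apart in pooled livers. The part of these other cells in the results was not tested, and counts without each pool are given beside the results.

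The transgene was checked first. atf6 measured 102, 118 and 89.4 CPM in the sibling pools and 524, 636 and 636 CPM in the nAtf6 TG pools of 5 dpf, and 65.8 and 33.2 CPM in the SIBS pools and 145 and 293 CPM in the nAtf6 pools of 78 hpf. The nAtf6 pools did not overlap their controls at either age. Taken by the titles, atf6 would be lower in the transgenic than in the sibling pools of 78 hpf. The log2 fold change was 2.54 (SE 0.34, adjusted p = 0.00101) at 5 dpf and 2.15 (SE 0.41, adjusted p = 0.0623) at 78 hpf, so atf6 itself did not pass the threshold of 0.05 at 78 hpf, with edgeR's quasi-likelihood test and Benjamini-Hochberg adjustment over 20595 genes. The difference between ages was −0.39 (95% interval −1.54 to 0.76, adjusted p = 0.788). Reads of the transgene and of the endogenous gene fall on the same identifier and were not separated. The 5 genes with a symbol whose log2 CPM followed that of atf6 most closely over the 10 libraries were fgf1a, PGD (an enzyme of the pentose phosphate pathway), GANAB (glucosidase II of the ER, ENSDARG00000076888), DNAJB9 (an ER co-chaperone, ENSDARG00000016886) and SURF4 (an ER cargo receptor, ENSDARG00000035131), with Pearson r of 0.983 to 0.994, as a description over libraries that share age, preparation and depth.

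**Figure D1:**
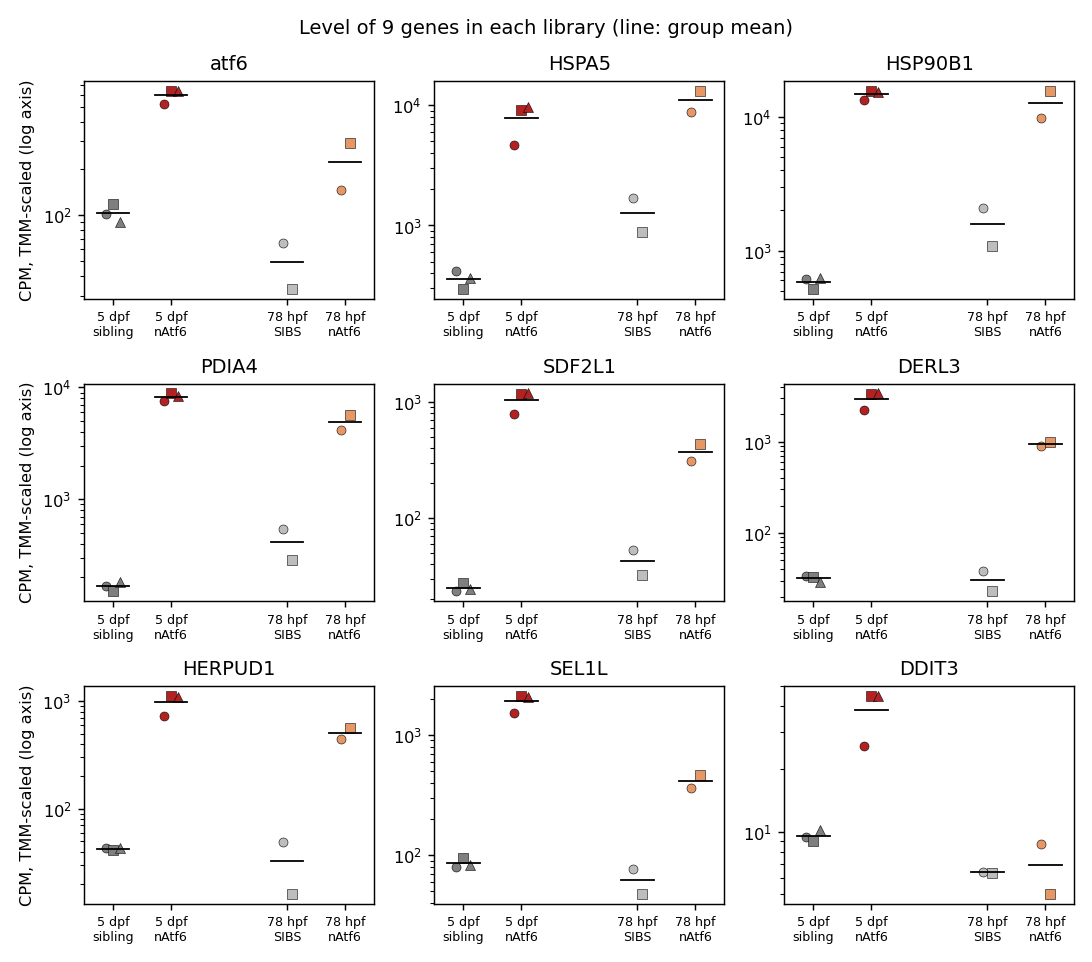
Level of 9 genes in each of the 10 libraries, in TMM-scaled CPM on a log axis, with circles, squares and triangles for pools 1, 2 and 3 of a group and a line at the group mean. Pools named nAtf6 lie above their controls at both ages in 8 panels, while DDIT3 is raised at 5 dpf (25.7 to 45.0 CPM against 9.03 to 10.2) and overlaps between the 78 hpf groups.

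More genes passed at 5 dpf than at 78 hpf. Of 20595 genes tested in 1 model over all libraries, 3001 changed at 5 dpf (14.6%), 2158 higher (10.5%) and 843 lower (4.09%), and 117 changed at 78 hpf (0.568%), 115 higher (0.558%) and 2 lower (0.00971%). Of the 117, 114 (0.554% of genes tested) changed in the same direction at 5 dpf, none changed in the opposite direction, and 3 did not pass at 5 dpf. The power of the contrasts differed: the median SE of a log2 fold change was 0.35 at 5 dpf and 0.44 at 78 hpf, and 6318 and 2310 genes fell under 0.05 before adjustment. The 78 hpf calls rest on the estimate of spread shared with the 5 dpf pools. Fitted alone, the 4 libraries of 78 hpf gave 0 calls in edgeR, with 869 genes under an unadjusted p of 0.05, while DESeq2 over all libraries gave 393. With the pool numbers within each age as a block, 51 genes passed at 78 hpf and 48 changed the same way at both ages. This block is called the clutch block or replicate block here. It also blocks the 5 dpf pools by number, although the titles call the numbers clutches at 78 hpf only. Without nAtf6 pool 2 of 78 hpf 44 genes passed at that age, without SIBS pool 2, 72, and without nAtf6 pool 1, 254. The 78 hpf count was 71 without either of the nAtf6 TG pools 2 and 3 and 75 without sibling pool 1 of 5 dpf, and the 5 dpf count was 1349 to 1569 without any of these 3 or sibling pool 3.

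Genes changed at 5 dpf kept their direction in most cases at 78 hpf, with smaller fold changes. They were chosen for passing at 5 dpf, which favours large values at that age, so the sizes are given as a description. Of the 3001, 2326 (77.5%) had the same sign at 78 hpf, against 56.6% of the 17594 genes that did not pass at 5 dpf. A total of 53 had no count in any 78 hpf library. Of the 2736 with at least 10 counts there, 80.2% had the same sign. Among the 207 genes higher by more than 4 log2 units at 5 dpf, 178 (86.0%) were higher at 78 hpf and the median log2 fold change went from 4.81 to 2.61. Among the 852 genes higher by 1 to 2 units, 81.6% were higher and the medians were 1.41 and 0.47. Lowered genes followed less: of 843, 67.6% had the same sign, with medians of −1.51 and −0.26, and of the 151 lowered by under 1 unit, 55.0%. These shares are descriptions across genes, which are not independent replicates. The ages share no library, so no control pool enters both sides.

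**Figure D2:**
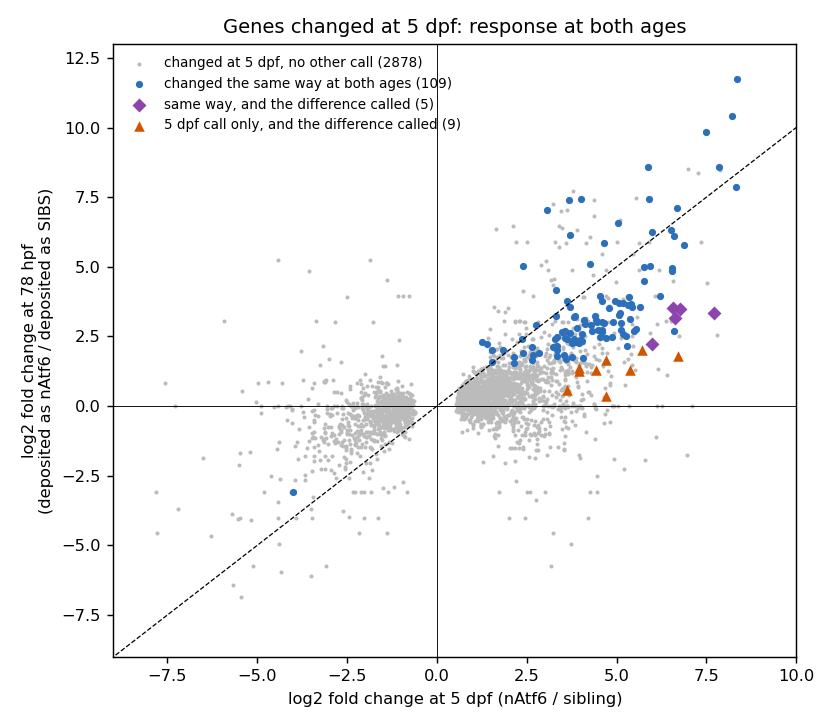
Log2 fold change at 5 dpf (x axis) against that at 78 hpf by deposited names (y axis) for the 3001 genes changed at 5 dpf, 1 point a gene, with the dashed line at equal change. Genes changed the same way at both ages (114) lie mostly below the line on the right, and the 14 genes whose contrast differed between the ages lie further below it.

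Of the 35 ER chaperones and foldases tested, 24 were higher at 5 dpf (68.6%, against 10.5% of all genes) and 18 of these also at 78 hpf (51.4%, against 0.558%), with none lower at either age. The median log2 fold change of the list was 3.34 at 5 dpf and 2.02 at 78 hpf, against −0.07 and 0.07 over all genes tested. None of the 35 passed the test of the difference between ages, while 17 had an unadjusted p under 0.05 for it, all 17 with a smaller rise at 78 hpf (48.6%, against 13.2% of all genes), and 12 passed in DESeq2. The count at 78 hpf fell to 8 without either of the nAtf6 TG pools 2 and 3 or the sibling pools 1 and 3 of 5 dpf, to 3 without nAtf6 pool 2 and 5 without SIBS pool 2 of 78 hpf, and to 1 with the clutch block, while the list median at 78 hpf stayed between 1.73 and 2.40 when each pool was left out.

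HSPA5 is BiP, the ER Hsp70 that binds unfolded chains. HSPA5 measured 420.5, 297 and 368 CPM in the sibling pools and 4670.1, 9084 and 9560.0 CPM in the nAtf6 TG pools of 5 dpf, and 1683 and 881 CPM in the SIBS pools and 8756 and 13106 CPM in the nAtf6 pools of 78 hpf. Its log2 fold change was 4.42 (SE 0.44, adjusted p = 0.000145) at 5 dpf and 3.09 (SE 0.50, adjusted p = 0.0286) at 78 hpf. The nAtf6 pools of both ages overlapped in level, and the SIBS pools of 78 hpf were above the sibling pools of 5 dpf. HSP90B1, the ER Hsp90, showed that pattern too. At 5 dpf HSP90B1 had 615, 519 and 631 CPM in sibling and 13338, 15619 and 15279 CPM in nAtf6 TG pools, and at 78 hpf 2088 and 1084 CPM in SIBS and 9876 and 15477 CPM in nAtf6 pools. Its fold changes were 4.65 and 3.00 on the log2 scale, with adjusted p = 5.29e-05 and 0.0141 from edgeR.

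PDIA4, a protein disulfide isomerase, and SDF2L1, a cofactor of BiP, had the largest 5 dpf rises of the list and the largest loss of fold at 78 hpf. PDIA4 measured 169, 149.8 and 180.1 CPM in the sibling pools and 7582, 8845 and 8438 CPM in the nAtf6 TG pools of 5 dpf, and 544 and 285 CPM in the SIBS pools and 4164 and 5683 CPM in the nAtf6 pools of 78 hpf. At 5 dpf SDF2L1 had 23.3, 27.5 and 24.4 CPM in sibling and 781, 1163 and 1187 CPM in nAtf6 TG pools, and at 78 hpf 53.1 and 32.2 CPM in SIBS and 307 and 438 CPM in nAtf6 pools. Both sets of groups were separate at both ages. PDIA4 differed between ages by −2.07 (SE 0.48, adjusted p = 0.135), and SDF2L1 by −2.25 (95% interval −3.24 to −1.26, adjusted p = 0.0969), so neither passed. MANF, a secreted ER stress factor, rose by 5.17 and 3.71 log2 units, HYOU1, a large ER Hsp70 relative, by 5.08 and 3.35, CRELD2 by 4.03 and 2.58, the lectin chaperone CALR by 3.57 and 2.69, and the co-chaperones DNAJB11 by 2.85 and 1.89 and dnajc3a by 3.82 and 2.42, each with an adjusted p under 0.05 at both ages. The 11 members that did not pass at either age included 3 named here. P4HB, a disulfide isomerase named after its values were seen, had log2 fold changes of 0.99 (adjusted p = 0.0688) and 1.07 (adjusted p = 0.369). The prolyl isomerases FKBP7 and fkbp11 had −0.67 and −0.19, and −0.31 and 1.02.

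Summed over the list, the share of all counts on the 35 chaperone genes was alike in the nAtf6 pools of both ages and unlike in their controls. It was 4.62 to 6.53% in nAtf6 TG pools at 5 dpf and 5.17 and 6.54% in nAtf6 pools at 78 hpf, but 0.359 to 0.477% in sibling pools at 5 dpf and 0.811 and 1.21% in SIBS pools at 78 hpf. The ratio of the group means was 13.5 at 5 dpf and 5.79 at 78 hpf. The 78 hpf controls were 2.33 times the 5 dpf controls, while the nAtf6 means of the ages had a ratio of 1.00. A sum is weighted to the most abundant genes and does not hold for each member. By group means, 24 of the 35 were lower in nAtf6 pools at 78 hpf than at 5 dpf, as were 11060 of all 20595 genes tested. Their median log2 ratio of 78 hpf to 5 dpf was −0.52, against −0.11 over all genes tested. The controls were higher at 78 hpf in 28 of the 35, with a median of 0.56, against 9474 of 20595 and a median of −0.11 over all genes tested. The summed share of ERAD genes was not alike in the nAtf6 pools of the ages. It was 0.770 to 1.22% in nAtf6 TG pools at 5 dpf and 0.558 and 0.584% in nAtf6 pools at 78 hpf. Controls were at 0.0625 to 0.0843% and 0.139 to 0.150%. Levels set side by side across ages also cross the change of library preparation.

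**Figure D3:**
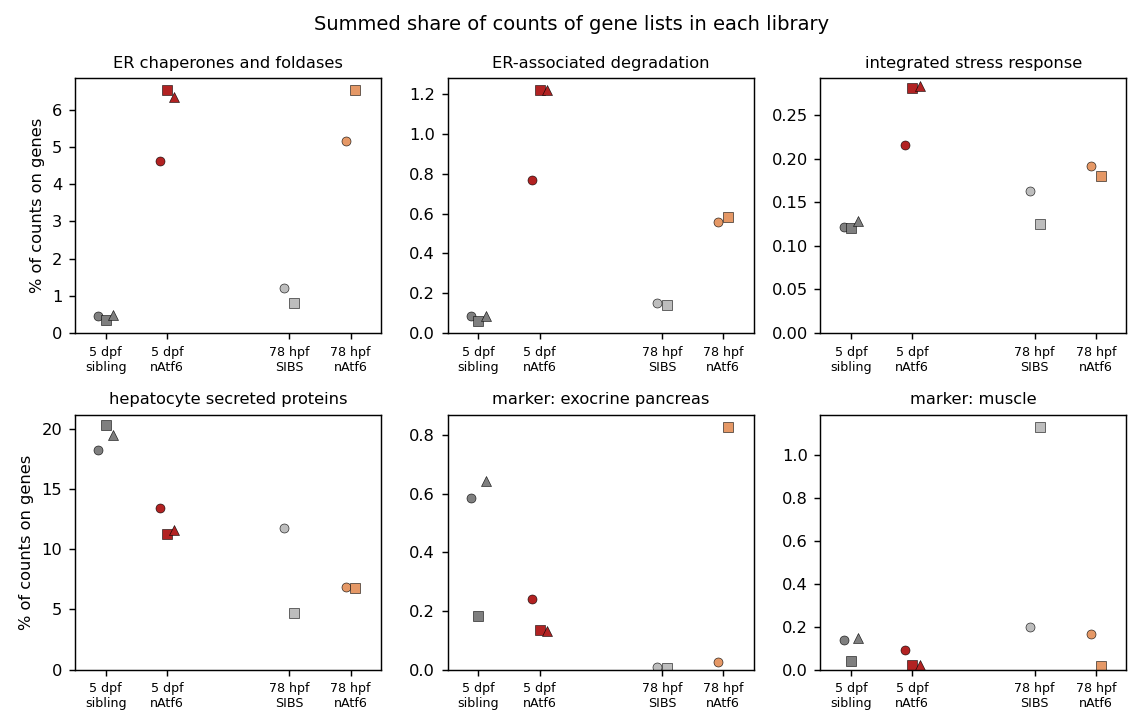
Percentage of all counts on genes that fell on each of 6 gene lists (y axis, from 0) in each library, by group, with circles, squares and triangles for pools 1, 2 and 3. Chaperones reach 4.62 to 6.54% in every nAtf6 pool of either age, while the exocrine pancreas markers are high in nAtf6 pool 2 and the muscle markers in SIBS pool 2 of 78 hpf.

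Of the 24 ERAD genes tested, 14 were higher at 5 dpf (58.3%, against 10.5% of all genes) and 5 at 78 hpf (20.8%, against 0.558%), the 5 being DERL3, HERPUD1, SEL1L, EDEM1 and os9, with list medians of 0.83 and 0.59. None passed in the difference (4 in DESeq2), and 9 had an unadjusted p under 0.05 (37.5%, against 13.2% of all genes), 7 of them with a smaller rise at 78 hpf. DERL3, a Derlin of the retrotranslocation channel, changed most. DERL3 measured 33.4, 33.2 and 29.1 CPM in the sibling pools and 2249.8, 3298 and 3388 CPM in the nAtf6 TG pools of 5 dpf, and 38.5 and 22.9 CPM in the SIBS pools and 901 and 986 CPM in the nAtf6 pools of 78 hpf. The pools did not overlap, and the log2 fold changes were 6.54 (SE 0.35, adjusted p = 6.99e-06) and 4.94 (SE 0.39, adjusted p = 0.000564). HERPUD1, a scaffold of the ubiquitin ligase complex, rose by 4.53 and 3.95 log2 units. At 5 dpf HERPUD1 had 43.5, 41.1 and 43.1 CPM in sibling and 728, 1121 and 1093 CPM in nAtf6 TG pools, and at 78 hpf 48.7 and 16.2 CPM in SIBS and 443 and 561 CPM in nAtf6 pools. Its difference was −0.57 (95% interval −1.86 to 0.71, adjusted p = 0.7), an interval that also holds differences of over 1 log2 unit. SEL1L, the adaptor of that complex, rose by 4.48 and 2.74, and EDEM1, a lectin that hands over misfolded glycoproteins, by 4.60 and 3.04. VCP, the ATPase that pulls substrates from the ER, had 4.07 at 5 dpf and 1.74 (SE 0.33, adjusted p = 0.0563) at 78 hpf, and its difference of −2.33 had an adjusted p of 0.0745. The list's count of 5 at 78 hpf was 1 with the clutch block and 2 without nAtf6 pool 2, and that of 14 at 5 dpf was 9 without any of the nAtf6 TG pools 2 and 3 and the sibling pools 1 and 3.

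The sensors and proteases of the response were called at 5 dpf alone, which does not show that the ages differ: 5 of 15 were higher at 5 dpf (33.3%, against 10.5% of all genes) and none at 78 hpf in edgeR, where 0.558% of all genes were higher. At 78 hpf 1 passed in DESeq2, and 4 had an unadjusted p under 0.05 in edgeR (26.7%, against 11.2% of all genes). The list includes atf6, the overexpressed gene, on whose identifier reads of the transgene fall. atf6 is among the 5 called at 5 dpf and among these 4, so its part in both counts follows from the design. The count of 5 was 3 without any of the nAtf6 TG pools 2 and 3 and the sibling pools 1 and 3, and 1 gene was called at 78 hpf without nAtf6 TG pool 1, nAtf6 pool 1 or SIBS pool 1. None passed in the difference, with 3 under an unadjusted p of 0.05 (20.0%, against 13.2% of all genes) and 1 call in DESeq2. EIF2AK3, the Perk kinase, had the largest of these changes. EIF2AK3 measured 25.1, 26.4 and 27.1 CPM in the sibling pools and 169.7, 334 and 345 CPM in the nAtf6 TG pools of 5 dpf, and 22.2 and 18.3 CPM in the SIBS pools and 46.3 and 51.8 CPM in the nAtf6 pools of 78 hpf. It rose by 3.43 (SE 0.29, adjusted p = 6.69e-05) at 5 dpf, had 1.28 (SE 0.34, adjusted p = 0.193) at 78 hpf, and differed by −2.15 (95% interval −3.12 to −1.19, adjusted p = 0.104). XBP1, the substrate of Ire1, had 0.93 and 0.81 and passed at neither age (adjusted p = 0.13 and 0.516). ern1, which encodes Ire1, had −0.39 and 0.52, also without a call. For ER translocation and N-glycosylation genes 12 of 32 were higher at 5 dpf (37.5%, against 10.5% of all genes) and none at 78 hpf in edgeR (4 in DESeq2), with medians of 0.41 and 0.48. At 78 hpf 9 had an unadjusted p under 0.05 (28.1%, against 11.2% of all genes). For the difference 7 had an unadjusted p under 0.05 (21.9%, against 13.2% of all genes), with no call in either tool. STT3B, a catalytic subunit of the oligosaccharyltransferase, had 3.08 (adjusted p = 0.000309) and 1.67 (adjusted p = 0.136). For ER to Golgi transport 20 of 38 were higher at 5 dpf (52.6%, against 10.5% of all genes) and 1 at 78 hpf (2.63%, against 0.558%). The medians were 1.09 and 0.54. At 78 hpf 37 of 38 had a log2 fold change above 0, against 11017 of 20595 genes, and 10 an unadjusted p under 0.05 (26.3%, against 11.2%). None passed in the difference in edgeR, with 3 under an unadjusted p of 0.05 (7.9%, against 13.2% of all genes). The 1 gene called at 78 hpf was arf4b, an Arf GTPase by its name, with 13 counts in nAtf6 pools and none in SIBS pools (at least 2.04-fold higher).

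Of the 28 integrated stress response genes tested, 13 were higher at 5 dpf (46.4%, against 10.5% of all genes) and 2 at 78 hpf (7.14%, against 0.558%). The list medians were 0.92 and 0.05, and at 78 hpf 15 of the 28 had a log2 fold change above 0. None passed in the difference (6 in DESeq2), 12 had an unadjusted p under 0.05 for it (42.9%, against 13.2% of all genes), and 11 of these were lower at 78 hpf. The count at 5 dpf was 9 without any of the nAtf6 TG pools 2 and 3 or the sibling pools 1 and 3. The 2 calls at 78 hpf were 0 with the clutch block, without nAtf6 pool 2 or without SIBS pool 2, and 1 without SIBS pool 1. The median at 78 hpf lay between 0.01 and 0.08 when each pool was left out and between −0.10 and 0.06 under the other scalings, filters and tools, so its sign turned with the processing.

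DDIT3 is Chop, a transcription factor linked to cell death under lasting ER stress. DDIT3 measured 9.41, 9.03 and 10.2 CPM in the sibling pools and 25.7, 44.6 and 45.0 CPM in the nAtf6 TG pools of 5 dpf, and 6.39 and 6.33 CPM in the SIBS pools and 8.72 and 5.02 CPM in the nAtf6 pools of 78 hpf. Its nAtf6 TG pools stood apart at 5 dpf, and the 78 hpf groups overlapped. The log2 fold change was 2.01 (SE 0.26, adjusted p = 0.000875) at 5 dpf and 0.12 (SE 0.35, adjusted p = 0.914) at 78 hpf, and the difference of −1.89 (95% interval −2.85 to −0.93, adjusted p = 0.132) did not pass. PSAT1, of serine synthesis, had the largest loss on the list. At 5 dpf PSAT1 had 3.04, 1.52 and 2.91 CPM in sibling and 18.2, 88.7 and 86.2 CPM in nAtf6 TG pools, and at 78 hpf 17.9 and 35.4 CPM in SIBS and 33.2 and 50.2 CPM in nAtf6 pools. Here the SIBS pools of 78 hpf were already above the sibling pools of 5 dpf, and the difference was −4.03 (95% interval −5.99 to −2.07, adjusted p = 0.124). ATF3, atf5a and nupr1a, stress-induced regulators of transcription named after their values were seen, had 5 dpf log2 fold changes of 2.81, 3.51 and 2.21 and 78 hpf values of −0.69, 0.09 and −0.02. At 78 hpf ATF3 measured 1.56 and 3.94 CPM in SIBS and 1.45 and 1.98 CPM in nAtf6 pools, or few counts. The 2 genes that rose at 78 hpf as well were PSPH, the last enzyme of serine synthesis (3.75 and 1.78), and CTH, of cysteine synthesis (1.83 and 2.01, ENSDARG00000074301). A second identifier named CTH, ENSDARG00000032206, passed at neither age in edgeR. It had −1.37 at 5 dpf (adjusted p = 0.0637) and 1.33 at 78 hpf (adjusted p = 0.583), there with 3 counts in SIBS and 8 in nAtf6 pools.

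**Figure D4:**
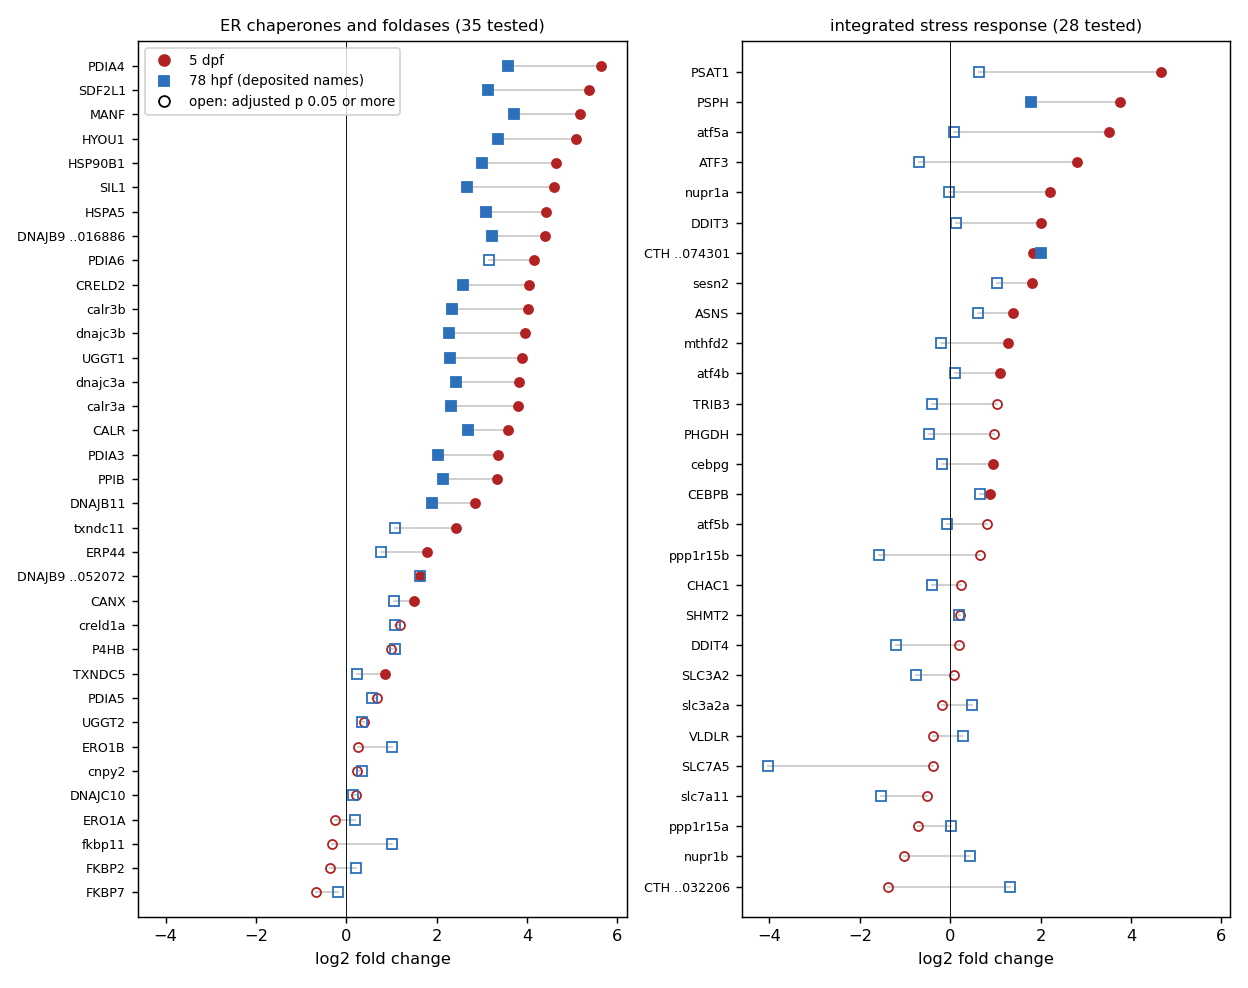
Log2 fold change of each tested member of 2 gene lists at 5 dpf (red circles) and at 78 hpf by deposited names (blue squares), 1 row a gene, filled where the adjusted p is under 0.05. Among 35 chaperones 18 are filled at both ages, and among 28 genes of the integrated stress response 13 are filled at 5 dpf and 2 at 78 hpf.

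The 114 genes changed the same way at both ages were 113 that rose and 1 that fell. In all 114 the pools did not overlap at either age, where 10.2% of all genes tested had every nAtf6 pool above every control at both ages. Of the 114, 26 belong to a pathway list described here. The 13 lists, chosen with earlier results of these data known, hold 15 to 38 tested genes each, of 20595. Over the 113 that rose the median log2 fold change was 4.47 at 5 dpf and 3.00 at 78 hpf (2.93 with the 5 genes that had no count in SIBS pools set to the bound that 3 counts allow). The control and nAtf6 pools of 5 dpf alone were separate, nAtf6 above, in 20.7% of all genes. The fold was smaller at 78 hpf in 89 of the 114 and larger in 25. Taken gene by gene, without adjustment, the 95% interval of the difference lay below 0 in 66 and above 0 in 7, and in 3 it lay within 1 log2 unit of 0 on both sides. For most of the 114 neither an equal nor, after adjustment, an unequal response was shown. The direction at both ages held in 111 of the 114 under each of 19 alternatives in which the gene was tested, all signed by the deposited names, and the calls at both ages held in a median of 15 of them.

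The 3 genes with the closest responses were named after their values were seen. slc25a1a is a mitochondrial citrate carrier. slc25a1a measured 5.01, 6.79 and 5.52 CPM in the sibling pools and 35.8, 26.5 and 27.3 CPM in the nAtf6 TG pools of 5 dpf, and 5.54 and 8.01 CPM in the SIBS pools and 27.4 and 44.2 CPM in the nAtf6 pools of 78 hpf. The log2 fold changes were 2.37 (SE 0.25, adjusted p = 0.000249) and 2.40 (SE 0.32, adjusted p = 0.00894), and the difference was 0.03 (95% interval −0.86 to 0.91). ALG12, a mannosyltransferase of N-glycan assembly, rose by 1.54 and 1.58, with an interval of the difference from −0.72 to 0.79. The interval of CTH (ENSDARG00000074301, 1 of the 2 identifiers of that name) was −0.61 to 0.98. At 5 dpf CTH had 352, 366 and 392 CPM in sibling and 1328, 1297 and 1314 CPM in nAtf6 TG pools, and at 78 hpf 106 and 71.0 CPM in SIBS and 319.6 and 395 CPM in nAtf6 pools. The level of CTH was lower at 78 hpf in both groups, and the groups were separate at both ages. CETP, the plasma carrier of cholesteryl esters, was the gene lowered at both ages. CETP measured 164, 302 and 195 CPM in the sibling pools and 15.9, 11.8 and 13.7 CPM in the nAtf6 TG pools of 5 dpf, and 69.9 and 34.6 CPM in the SIBS pools and 3.75 and 8.67 CPM in the nAtf6 pools of 78 hpf. It fell by 4.00 log2 units at 5 dpf (adjusted p = 0.000186) and by 3.08 at 78 hpf (adjusted p = 0.0278, edgeR).

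Several of the genes changed the same way at both ages had few or no counts in the SIBS pools. TKT, transketolase of the pentose phosphate pathway, had 3 counts in SIBS and 557 in nAtf6 pools, a ratio of 177 with a counting interval of 60.3 to 862. At 5 dpf TKT had 1.06, 0.794 and 1.23 CPM in sibling and 50.4, 68.6 and 69.9 CPM in nAtf6 TG pools, and at 78 hpf 0.284 and 0.141 CPM in SIBS and 31.2 and 45.5 CPM in nAtf6 pools. NPTX1, known as a neuronal pentraxin, had 2 against 314 counts, a ratio of 150 with an interval of 41.1 to 1242. CHRNA2, a subunit of acetylcholine receptors, and SIX3 (ENSDARG00000054879), a homeobox factor of eye and forebrain, had no count in SIBS pools and were at least 76.0-fold and 29.7-fold higher in nAtf6 pools, where the floor is 3 counts in each library. Among genes with a mean of at least 1 CPM at both ages they had 2 of the 5 largest rises at 5 dpf, 8.36 and 8.21 log2 units, beside EPDR1 (8.32), CLSTN3 (7.86) and mhc2dga (7.89).

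EPDR1, an ependymin relative, and CLSTN3, a calsyntenin, had large folds at both ages. EPDR1 measured 1.11, 0.939 and 0.542 CPM in the sibling pools and 221, 303 and 311 CPM in the nAtf6 TG pools of 5 dpf, and 0.284 and 0.562 CPM in the SIBS pools and 82.1 and 119.5 CPM in the nAtf6 pools of 78 hpf. At 5 dpf CLSTN3 had 13.1, 19.9 and 6.75 CPM in sibling and 2449, 3379 and 3370.4 CPM in nAtf6 TG pools, and at 78 hpf 3.27 and 2.25 CPM in SIBS and 1033 and 1065 CPM in nAtf6 pools. No pools overlapped, and the differences between ages were −0.46 (95% interval −1.94 to 1.02, adjusted p = 0.815) and 0.71 (95% interval −0.65 to 2.06, adjusted p = 0.642), intervals that reach beyond 1 log2 unit. tubb4bl, a beta tubulin, stood out with a larger rise at 78 hpf. tubb4bl measured 2.43, 1.37 and 1.38 CPM in the sibling pools and 39.9, 21.8 and 22.6 CPM in the nAtf6 TG pools of 5 dpf, and 0.710 and 0.844 CPM in the SIBS pools and 120.1 and 150.4 CPM in the nAtf6 pools of 78 hpf. Its nAtf6 pools were higher at 78 hpf than at 5 dpf and its control pools lower. The log2 fold changes were 4.01 (SE 0.33, adjusted p = 5.89e-05) and 7.42 (SE 0.51, adjusted p = 0.000235), and the difference of 3.42 (95% interval 2.14 to 4.70, adjusted p = 0.0633) did not pass after adjustment. Among the 7 genes whose interval lay above 0 were TKT, tubb4bl, ENSDARG00000093195, BHLHA15, ARHGAP44 and UBE2QL1, of which the last 4 were named after their values were seen. BHLHA15, a transcription factor of secretory cells including the exocrine pancreas, had a larger rise at 78 hpf too, 2.39 and 5.04 log2 units, with 3.88 and 10.8 CPM in nAtf6 pools 1 and 2 of 78 hpf, the second being the pool with 0.826% exocrine marker counts. UBE2QL1 had no count in SIBS and 18 in nAtf6 pools, so it was at least 2.83-fold higher at 78 hpf. That bound is below its 5 dpf rise of 3.05 log2 units. Its interval above 0 depends on the prior count, and a larger rise at 78 hpf is not shown. Among the others, pdia8, a disulfide isomerase by its name, rose by 6.59 and 6.12, triobpb by 5.07 and 3.72, and zgc:65895 by 4.96 and 3.78.

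The contrast differed between the ages in 14 genes (0.0680% of those tested), all with a smaller rise at 78 hpf. Their log2 fold changes were 3.62 to 7.71 at 5 dpf and 0.35 to 3.54 at 78 hpf. Of the 14, 9 passed at 5 dpf and missed the adjusted threshold at 78 hpf: FOXK2, FANCG, MIS12, ckap4, SMARCB1, mtfr2, P3H1, fam83d and LRIG3. This does not show that they did not respond at 78 hpf, as the unadjusted 95% interval there lay above 0 in 7 of the 9, all but LRIG3 and FANCG. The other 5, hmgn3, tuba1b, GYG1, RAD54B and DENND4B, rose at both ages. No gene passed at 78 hpf and in the difference without passing at 5 dpf. The other 2878 genes that passed at 5 dpf and not at 78 hpf did not pass in the difference, so no difference between the ages is shown for them. None of the 14 is on a pathway list described here. The 13 lists hold 15 to 38 tested genes each, of 20595, so this count says little about the 14. Before adjustment 2728 genes (13.2%) were under 0.05. The number depended on single pools: it was 0 with the clutch block (2281 genes under an unadjusted p of 0.05) and 0 without any of 5 pools (nAtf6 TG 2 and 3 and sibling 1 and 3 of 5 dpf, and nAtf6 pool 2 of 78 hpf; 1791 to 2221 genes under an unadjusted p of 0.05), 6 without sibling pool 2, 67 without nAtf6 pool 1 of 78 hpf, 506 without nAtf6 TG pool 1, and 564 in DESeq2. The sign of the difference held for all 14 in each of 18 alternatives, and each was called in 6 to 12 of them.

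ckap4, an ER membrane protein that binds microtubules, had the largest difference. ckap4 measured 3.19, 4.48 and 3.10 CPM in the sibling pools and 205, 426 and 501 CPM in the nAtf6 TG pools of 5 dpf, and 21.0 and 46.1 CPM in the SIBS pools and 112 and 124 CPM in the nAtf6 pools of 78 hpf. Sibling pools of 5 dpf were the lowest, and SIBS pools of 78 hpf were higher, while the nAtf6 pools were lower. The log2 fold changes were 6.72 (SE 0.48, adjusted p = 2.53e-05) and 1.81 (SE 0.47, adjusted p = 0.185), with a difference of −4.90 (95% interval −6.31 to −3.50, adjusted p = 0.041).

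LRIG3, a membrane protein with leucine-rich repeats, and FANCG, of the Fanconi anaemia DNA repair complex, had the smallest 78 hpf changes. At 5 dpf LRIG3 had 3.49, 2.02 and 2.76 CPM in sibling and 49.0, 79.2 and 89.8 CPM in nAtf6 TG pools, and at 78 hpf 4.55 and 7.31 CPM in SIBS and 10.3 and 4.71 CPM in nAtf6 pools. At 5 dpf FANCG had 1.77, 1.73 and 2.37 CPM in sibling and 21.5, 25.9 and 25.3 CPM in nAtf6 TG pools, and at 78 hpf 4.40 and 4.22 CPM in SIBS and 5.33 and 7.75 CPM in nAtf6 pools. At 5 dpf the groups were far apart, and at 78 hpf LRIG3 overlapped between groups while FANCG did not. LRIG3 had 0.35 (SE 0.45, adjusted p = 0.752) at 78 hpf and a difference of −4.35 (95% interval −5.66 to −3.05, adjusted p = 0.042), and FANCG had 0.59 (SE 0.28, adjusted p = 0.46) and a difference of −3.03 (95% interval −3.82 to −2.23, adjusted p = 0.0359). MIS12, a kinetochore protein, showed the shift in both groups. MIS12 measured 1.32, 0.722 and 1.48 CPM in the sibling pools and 30.8, 57.9 and 60.4 CPM in the nAtf6 TG pools of 5 dpf, and 7.81 and 9.00 CPM in the SIBS pools and 18.3 and 22.6 CPM in the nAtf6 pools of 78 hpf. Its 78 hpf change of 1.28 (adjusted p = 0.25) compares with 5.37 at 5 dpf.

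FOXK2 (ENSDARG00000011609), a forkhead factor, was just outside the 78 hpf threshold. At 5 dpf FOXK2 had 12.9, 15.4 and 10.7 CPM in sibling and 263, 373 and 391 CPM in nAtf6 TG pools, and at 78 hpf 18.8 and 22.2 CPM in SIBS and 54.8 and 75.6 CPM in nAtf6 pools. It had 1.67 (SE 0.31, adjusted p = 0.0501) at 78 hpf, with no overlap between pools. SMARCB1 (ENSDARG00000033647), a subunit of the SWI/SNF remodelling complex, had 3.94 and 1.24, with a 78 hpf adjusted p of 0.0624. P3H1, a prolyl hydroxylase of collagen in the ER, had 3.95 and 1.38 (adjusted p = 0.0721), fam83d, of the mitotic spindle, 5.70 and 2.00 (adjusted p = 0.0631), while mtfr2, a regulator of mitochondrial fission, had 4.42 at 5 dpf and did not pass at 78 hpf (adjusted p = 0.14), with 8.81 and 8.57 CPM in SIBS and 17.3 and 25.7 CPM in nAtf6 pools. All 5 had both nAtf6 pools above both SIBS pools at 78 hpf, as had 23.7% of all genes tested.

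Of the genes that rose at both ages and also differed, hmgn3, a nucleosome-binding protein, and tuba1b, an alpha tubulin, had the smallest adjusted p at both ages. hmgn3 measured 12.0, 10.1 and 11.1 CPM in the sibling pools and 840.1, 1212 and 1132 CPM in the nAtf6 TG pools of 5 dpf, and 47.9 and 43.3 CPM in the SIBS pools and 472 and 585 CPM in the nAtf6 pools of 78 hpf. At 5 dpf tuba1b had 3.85, 2.82 and 3.85 CPM in sibling and 358, 387 and 416 CPM in nAtf6 TG pools, and at 78 hpf 21.9 and 31.5 CPM in SIBS and 256 and 347 CPM in nAtf6 pools. For both, the controls were higher at 78 hpf and the nAtf6 pools lower, with all groups apart. The differences were −3.05 (95% interval −3.86 to −2.23, adjusted p = 0.0359) and −3.28 (95% interval −4.14 to −2.43, adjusted p = 0.0359). GYG1 (ENSDARG00000059391), the glycogenin that primes glycogen, had the largest 5 dpf rise of the 14, 7.71 (SE 0.48, adjusted p = 1.32e-05), and 3.35 at 78 hpf. DENND4B, an activator of Rab proteins, differed on the nAtf6 side. At 5 dpf DENND4B had 10.6, 12.9 and 9.91 CPM in sibling and 865, 1148 and 1304 CPM in nAtf6 TG pools, and at 78 hpf 12.6 and 8.57 CPM in SIBS and 117 and 73.4 CPM in nAtf6 pools. Here the controls of the ages were alike, and the nAtf6 pools of 78 hpf were far below those of 5 dpf. RAD54B, of homologous recombination, rose by 5.99 and 2.25.

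Across the 14, the controls were higher at 78 hpf than at 5 dpf in 13 and the nAtf6 pools lower in all 14, by group means. Of all 20595 genes tested, 9474 were higher in the controls and 11060 lower in the nAtf6 pools. The median log2 ratio of 78 hpf to 5 dpf was 1.58 in controls and −1.54 in nAtf6 pools, against −0.11 and −0.11 over all genes tested and 0.21 and −1.14 over the 113 genes that rose at both ages. A negative difference implies a shift of this kind in at least 1 of the groups, so this shows only how it was shared between them. The levels cross the change of library preparation.

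**Figure D5:**
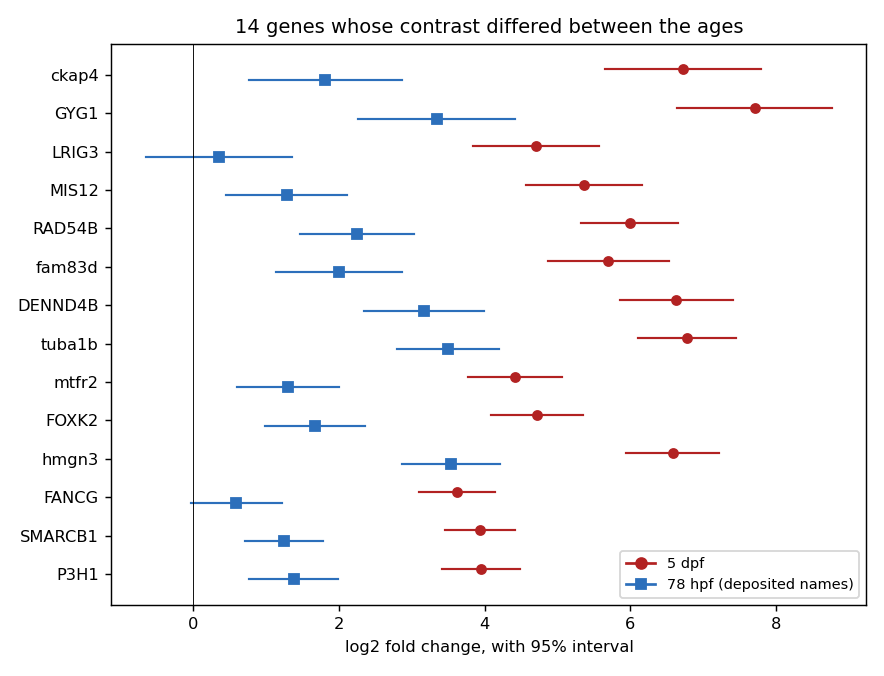
Log2 fold change with its 95% interval (lines) at 5 dpf (red circles) and at 78 hpf by deposited names (blue squares) for the 14 genes whose contrast differed between the ages, sorted by the size of the difference. The intervals of the ages do not overlap in any row, and at 78 hpf those of LRIG3 and FANCG include 0.

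The neighbours of the 14 in the genome were examined after the genes were seen. In the gene order of the RefSeq annotation of GRCz12tu, a later assembly than the GRCz10 named in the submitters' processing notes, 9 of the 14 could be placed with a tested neighbour. Of these 9, 4 (44.4%) had a neighbour that rose by more than 2 log2 units at 5 dpf, against 619 of 11128 genes (5.56%) and 84 of the 428 placed genes that themselves rose that far (19.6%). Of the 114 genes changed the same way at both ages, 70 could be placed, and 17 of these (24.3%) had such a neighbour. FANCG lies beside VCP (4.07 log2 units at 5 dpf), MIS12 beside DERL2 (3.37), mtfr2 beside armc1l (3.55) and RAD54B beside GEM (4.18). Whether the counting used strand is not given in the sources used here, so reads of overlapping neighbours may not be separated. These 4 genes are reported as uncertain, and the same limit holds for the 17 genes changed the same way. The part of the neighbours in the difference, or in the calls at both ages, was not tested.

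At 78 hpf, 3 genes passed that did not pass at 5 dpf, and none of them passed in the difference. sgcg is the gamma-sarcoglycan of muscle. It measured 94.2 to 102 CPM in sibling and 85.3 to 95.2 CPM in nAtf6 TG pools at 5 dpf, and 4.26 and 8.72 CPM in SIBS and 1.09 and 0.304 CPM in nAtf6 pools at 78 hpf. Its log2 fold change was −3.14 (SE 0.49, adjusted p = 0.0212) at 78 hpf and −0.12 at 5 dpf, with a difference of −3.02 (95% interval −4.29 to −1.76, adjusted p = 0.0787). The SIBS pools, which were higher, also held 0.198 and 1.13% muscle marker counts, against 0.168 and 0.0158% in the nAtf6 pools, and the part of this was not tested. znf990, a zinc finger gene, had 3 counts in SIBS and 34 in nAtf6 pools, a ratio of 10.8 (counting interval 3.40 to 55.0), and a 5 dpf log2 fold change of −0.05. si:ch1073-159d7.13 rose by 2.99 (SE 0.49, adjusted p = 0.0292) at 78 hpf and had 0.20 at 5 dpf. At 5 dpf si:ch1073-159d7.13 had 2.63, 3.25 and 3.06 CPM in sibling and 2.92, 4.20 and 3.16 CPM in nAtf6 TG pools, and at 78 hpf 0.426 and 0.984 CPM in SIBS and 4.12 and 7.30 CPM in nAtf6 pools. The groups overlapped at 5 dpf and not at 78 hpf.

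Hepatocyte secreted proteins had 5 of 38 lower (13.2%, against 4.09% of all genes) and 1 higher at 5 dpf and no call at 78 hpf in edgeR (2 lower in DESeq2). At 78 hpf 3 of the 38 were lower at an unadjusted p under 0.05, against 968 of 20595 genes. Their medians were −0.70 and −0.15. At 5 dpf 5 of the 38 had a log2 fold change above 0, against 9395 of 20595 genes. The lower count was 2 without nAtf6 TG pool 2 or 3, 3 without sibling pool 1 or 3 and 8 without either SIBS pool, and the 1 higher call was 0 without any 1 of the 5 dpf pools. The 78 hpf median was 0.84 without SIBS pool 1. hpxa, a heme carrier, had −5.50 (SE 0.92, adjusted p = 0.0035) and −2.13 (SE 1.22, adjusted p = 0.517). At 5 dpf hpxa had 35.3, 102 and 44.4 CPM in sibling and 2.67, 0.517 and 0.853 CPM in nAtf6 TG pools, and at 78 hpf 9.52 and 0.422 CPM in SIBS and 1.57 and 0.608 CPM in nAtf6 pools. The 78 hpf groups overlapped. apoa1a, an apolipoprotein A-I, was the 1 that rose at 5 dpf, by 1.63, and had −1.13 (adjusted p = 0.452) at 78 hpf. The 5 largest falls at 5 dpf among genes seen at both ages (zgc:163083, si:dkey-19b23.12, si:ch73-288o11.5, krt1-19d and zgc:165423) rested on sibling pools 1 and 3. krt1-19d is a keratin. krt1-19d measured 76.0, 0.866 and 81.1 CPM in the sibling pools and 2.03, 0.711 and 0.401 CPM in the nAtf6 TG pools of 5 dpf, and 176 and 8.86 CPM in the SIBS pools and 1.09 and 1.06 CPM in the nAtf6 pools of 78 hpf. Sibling pool 2 was at or near the level of the nAtf6 TG pools in each of the 5, and SIBS pool 2 of 78 hpf was far below SIBS pool 1 in 4 of them.

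Of the metabolic lists, triglyceride and fatty acid synthesis had 4 of 25 higher and 4 lower at 5 dpf (32.0% called, against 14.6% of all genes), sterol synthesis and uptake 6 of 28 higher and 1 lower (25.0%), glycolysis and gluconeogenesis 4 of 34 higher and 2 lower (17.6%), and fatty acid oxidation 1 of 29 lower (3.45%). None had a call at 78 hpf in edgeR or DESeq2, where 1 to 5 members a list were under an unadjusted p of 0.05 (3.45 to 14.7%, against 11.2% of all genes). None had a call in the difference in edgeR, where DESeq2 made at most 2 in any of these lists. For the difference 0 to 9 members a list were under an unadjusted p of 0.05 (0.0 to 26.5%, against 13.2% of all genes). The 5 dpf medians, in the order given, were −0.14, −0.58, 0.04 and −0.13, against −0.07 over all genes tested. Above 0 at 5 dpf were 11 of 25, 11 of 28, 19 of 34 and 9 of 29, against 9395 of 20595 genes. The numbers of 5 dpf calls rested on single pools. Triglyceride synthesis had 1 higher and 1 lower without nAtf6 TG pool 2 or 3, 2 and 2 without sibling pool 1, 2 and 3 without sibling pool 3 and 6 and 4 without sibling pool 2. Sterol synthesis had 2 higher without nAtf6 TG pool 2 or 3 or sibling pool 1, 3 without sibling pool 3 and 10 without sibling pool 2, with 0 to 2 lower. The lower calls of glycolysis were 0 without nAtf6 TG pool 2 or 3 or sibling pool 1 or 3 and 4 without either SIBS pool, and fatty acid oxidation had 3 higher without sibling pool 2 and no call without nAtf6 TG pool 2 or 3, sibling pool 1 or 3, or either nAtf6 pool of 78 hpf. FASN, fatty acid synthase, passed at neither age. FASN measured 60.8, 345 and 58.3 CPM in the sibling pools and 223, 404 and 414 CPM in the nAtf6 TG pools of 5 dpf, and 21.9 and 18.7 CPM in the SIBS pools and 14.9 and 26.4 CPM in the nAtf6 pools of 78 hpf. Sibling pool 2 of 5 dpf lay within the range of the nAtf6 TG pools, and the 78 hpf groups overlapped. Its log2 fold changes were 1.16 (SE 0.63, adjusted p = 0.246) and 0.02 (SE 0.79, adjusted p = 1), with an interval of the difference from −3.40 to 1.12. cpt1ab, which brings fatty acids into mitochondria, had −1.20 (adjusted p = 0.037) and overlapping pools at 78 hpf. Cell cycle and DNA replication genes took 0.0162 to 0.0370% of counts at 5 dpf and 0.227 to 0.324% at 78 hpf. Of 34, 1 was higher at 5 dpf (2.94%, against 10.5% of all genes). It was RRM2 (ENSDARG00000078069), a subunit of ribonucleotide reductase, at 1.48 and 2.05 (edgeR, adjusted p = 0.0402 and 0.16). That call was lost without any 1 of the 5 dpf pools but sibling pool 2. A second identifier named RRM2, ENSDARG00000020711, passed at neither age, with 0.63 and 0.21 (edgeR, adjusted p = 0.507 and 0.929). At 78 hpf 31 of 34 members had a log2 fold change above 0, against 11017 of 20595 genes. At 5 dpf 17 of 34 were above 0, against 9395 of 20595. For p53 targets and apoptosis genes 5 of 25 were higher at 5 dpf (20.0%, against 10.5% of all genes). None was higher at 78 hpf in DESeq2 or in edgeR, where 0.558% of all genes were higher. At 78 hpf 1 of the 25 was lower at an unadjusted p under 0.05, against 968 of 20595 genes. The list medians were 0.41 and −0.16 (0.05 at 78 hpf without nAtf6 pool 2). No member had a call in the difference in either tool. For the difference 4 of the 25 were under an unadjusted p of 0.05, against 2728 of 20595 genes. The list's count of 5 was 1 without sibling pool 3 or either of the nAtf6 TG pools 2 and 3, 2 without sibling pool 1 and 8 without sibling pool 2.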

How the data were processed

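Raw counts of reads per Ensembl gene were used as deposited by the authors, in 1 column or file a pool. For these counts the submitters' processing notes name FastQC 0.11.5, Trimmomatic, TopHat2 2.1.0, HTSeq and DESeq2 at 5 dpf, CASAVA, MultiQC 1.7, HTSeq and DESeq2 at 78 hpf, and the build GRCz10 for both. The roles of these tools, the strand setting and the annotation release are not given in the sources used here. The special entries of the 78 hpf counts (35.3 to 47.4% of each library) name no gene and were left out.

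All 10 libraries were fitted in 1 model with 4 group means in edgeR 4.0.16 (R 4.3.3), after filterByExpr left 20595 of 32105 identifiers, with TMM scaling, quasi-likelihood tests and Benjamini-Hochberg adjustment, at an adjusted p of 0.05. The SE is the log2 fold change over the root of the F statistic. The code was tested on simulated data. A gene changed the same way when it passed at both ages with 1 sign, and was called at 1 age only when it passed there, not at the other, and in the difference. The pools are described as separate collections of livers, but p-values measure the spread between pools only. At 5 dpf nAtf6 TG pools 2 and 3 had a chi-square of 2.90 per degree of freedom, against 54.5 and 59.8 with pool 1. Sibling pools 1 and 3 had 13.1, against 83.3 and 88.4 with pool 2. Whether such close pools are independent was not tested. If they are not, the shared spread is too small and the calls at both ages may be too many. Intervals of count ratios and floors cover counting error only.

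The groups compared, the gene lists and the named genes were chosen with earlier results of these data known. Named genes were 18 fixed genes (FASN and members of the unfolded protein response), the 12 genes with the smallest adjusted p at both ages, all genes whose contrast differed, the genes passing at 78 hpf alone, the 5 largest and 5 smallest 5 dpf changes among genes averaging at least 1 CPM at both ages, and up to 4 members a list with the extreme changes. Genes outside this rule are said to be named after their values were seen, or are the complete small groups that the text counts. Some genes picked by the rule are not reported here.

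At 78 hpf the titles number 2 clutches, so the numbers pair pools there by label, although the deposited names carry other numbers and the deviations of the pair correlated at r = −0.112. At 5 dpf the numbers are not stated to be clutches and the pairs correlated at 0.101, 0.0804 and −0.0811. Alternatives were other scalings (RLE, library totals), filters (none, 10 counts in every library), DESeq2 1.42.0, limma 3.58.1 (voom with quality weights), the replicate block, separate fits, thinned 5 dpf libraries, a minimum fold, groups by titles, and each pool left out. The search for promoter motifs was not run and no sequence is shown.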

Additional observations from a re-analysis of the deposited data

Results flagged for a closer look

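In 14 genes the test of the difference itself separated the nAtf6 response at 78 hpf from that at 5 dpf (edgeR, adjusted p under 0.05), and in all 14 the rise was smaller at 78 hpf. On the log2 scale the differences were −4.90 for ckap4, −4.36 for GYG1 (ENSDARG00000059391), −4.35 for LRIG3, −4.09 for MIS12, −3.74 for RAD54B, −3.70 for fam83d, −3.46 for DENND4B, −3.28 for tuba1b, −3.11 for mtfr2, −3.05 for FOXK2 (ENSDARG00000011609), −3.05 for hmgn3, −3.03 for FANCG, −2.70 for SMARCB1 (ENSDARG00000033647) and −2.57 for P3H1. Taken by the titles, the 78 hpf contrast turns sign and each of these differences grows in size. The number of genes called was 0 with the replicate block. It was also 0 without nAtf6 TG pool 2 or 3 or sibling pool 1 or 3 of 5 dpf. Each of the 14 was called in 6 to 12 of 18 alternatives. FANCG, MIS12, mtfr2 and RAD54B are uncertain because of their raised neighbours, as described above. No other value met a criterion for a closer look, as the groups of 2 or 3 pools are too small for a check of single pools against their group.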

How the results depend on the processing

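With the main counts at 3001 (5 dpf), 117 (78 hpf), 14 (difference) and 114 (same way), DESeq2 gave 393 at 78 hpf, 564 in the difference and 264 the same way. limma voom with quality weights gave 13270 at 5 dpf, 460 in the difference and a same-sign share of 66.0%. Separate fits gave 0 at 78 hpf (869 at an unadjusted p under 0.05) and 0 the same way. The difference count was 134 with no filter, 77 where each library had to hold 10 counts, 28 with thinned 5 dpf libraries and 22 with library totals only. Library totals moved the median 78 hpf log2 fold change of all genes from 0.07 to −0.05, and the chaperone median from 2.02 to 1.87. With the replicate block the counts were 51 at 78 hpf, 48 the same way and 0 in the difference. Crossing the 78 hpf numbers, chosen after seeing the data, gave 2562 at 5 dpf, 121 at 78 hpf, 103 the same way and 6 in the difference. With groups by titles, 117 genes passed at 78 hpf (2 higher), 1786 in the difference, 0 changed the same way and the same-sign share was 20.7%. Leaving out each pool gave 1349 to 4178 at 5 dpf, 44 to 254 at 78 hpf, 0 to 506 in the difference, 44 to 151 the same way and a share of 67.1 to 85.9%. The cause of these shifts was not tested, except that the titles turn the 78 hpf sign by construction.

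That turn gave differences of the other sign in 13 named genes: TKT −13.34, tubb4bl −11.43, CLSTN3 −16.43, NPTX1 −13.80, sgcg 3.26, si:ch1073-159d7.13 −3.19, znf990 −3.33, krt1-19d 12.08, mhc2dga −16.37, SIX3 (ENSDARG00000054879) −18.61, CHRNA2 −20.11, arf4b −11.59 and RRM2 (ENSDARG00000078069) −3.53 log2 units, where genes at or near 0 counts depend on the prior count. No other alternative turned the sign of a named gene's difference that passed in either fit, and over all alternatives 123 of 1583 such values lost and 78 gained significance. Of the 78 hpf values 131 of 1574 lost and 36 gained it, and of the 5 dpf values 70 of 1665 and 41. At 78 hpf a count of 0 allows up to 0.616 CPM by library totals alone, without TMM scaling. With the 5 dpf libraries thinned to the mean 78 hpf total, 2543 genes passed at 5 dpf and 140 at 78 hpf. The part of depth in the number of 78 hpf calls was not tested.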
